A study of Homo sapiens with 23 samples.

Results

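The genes described here are the nuclear protein-coding genes whose symbols start with NDUF, which name the nuclear-encoded subunits of mitochondrial respiratory complex I and a family of its assembly factors. They were found by matching the NCBI Gene ID of every row of the gene table to a symbol, and they made up 46 of 21658 rows. Of these, 37 encoded subunits, 8 encoded NDUFAF assembly factors, and 1 was the readthrough transcript NDUFC2-KCTD14, which shares reads with NDUFC2. RNA was sequenced from Kuramochi, OVSAHO, OV-90 and EFO-21, 4 established human ovarian cancer cell lines, each as the parental line and as a line with acquired resistance to prexasertib, an inhibitor of the DNA damage checkpoint kinase CHK1. The resistant lines had been grown for a long time in rising concentrations of the drug. Each group held 3 biological replicate libraries except parental OV-90, which held 2, for 23 libraries in all, numbered 2 to 24 here after the headings of the table. The labels name no engineered allele or transgene. For each parental line 1 resistant line was measured, so resistance cannot be told apart from other changes that arose in that line. How many selections gave each resistant line, whether drug was present at harvest, whether a line was a clone and whether the parental line was cultured in parallel are not given in the sources used here. The p-values within each line below therefore measure the spread between libraries of 1 resistant and 1 parental line.

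Complex I, NADH:ubiquinone oxidoreductase, is the largest enzyme of the respiratory chain. Its matrix arm holds an N module, which oxidises NADH, and a Q module, which passes the electrons to ubiquinone. Its membrane arm pumps protons across the inner mitochondrial membrane. The core subunits that carry out catalysis are surrounded by accessory subunits, and the proton-pumping core subunits are encoded by mitochondrial DNA. Assembly factors hold or modify intermediates of the enzyme and are not part of the finished complex. Ovarian carcinoma lines differ widely in how much they rely on respiration. The genes encoded by mitochondrial DNA were not analysed here, since 0 of their rows were in the table.

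Promoters are shown first because the members are driven by separate promoters on many chromosomes, and because promoters of respiratory genes are known for sites of NRF1 and of ETS factors such as GABPA. RefSeq promoters on GRCh38.p14, from 250 bases before to 50 bases after the start, were matched for 40 of 46 members. NDUFAF6, NDUFB5, NDUFB9, NDUFC2 and NDUFS5 were among those with no entry. Both strands were searched for GCGCANGCG (NRF1), CCGGAAG (ETS), TGACGTCA (CRE, the site of CREB) and TCAAGGTCA (ESRRA), and matches of different motifs were allowed to overlap. The NRF1 letters were found in 11 of 40 members, or 27.5%, against 14.4% of 14340 genes of the table with a promoter and 9.02% of all 27305 genes with one. They were in 10 of 32 subunits and in 1 of 7 assembly factors. The ETS letters were in 7 members, or 17.5%, against 18.6% of the genes of the table and 12.2% of all. The CRE letters were in 2 members, or 5.0%, against 3.38% and 2.25%. The ESRRA letters were in 0 of 40 members and in 0.37% of the genes of the table and 0.432% of all. In total 20 of 40 members held at least 1 match, among them all 6 whose promoters are printed below. NDUFC1, NDUFB10, NDUFAF1 and NDUFAF7, whose changes are also described below, held none. These shares are descriptions with no test, and a match is not a site that was shown to be bound. The 200 bases before the start are printed for 6 members whose expression is described below: the 2 members lower in every resistant line (NDUFA9 and NDUFS6), 3 whose falls in OV-90 or Kuramochi are described (NDUFA3, NDUFB2 and NDUFAF4), and NDUFA1, which went up in 1 line and down in others. Sequences run 5′ to 3′ along the strand of the gene, and capitals mark the matched letters, which are NRF1 matches in NDUFA9, NDUFS6 and NDUFA3, a CRE match in NDUFB2 and ETS matches in NDUFAF4 and NDUFA1.
NDUFA9, chr12:4648914-4649113, plus strand: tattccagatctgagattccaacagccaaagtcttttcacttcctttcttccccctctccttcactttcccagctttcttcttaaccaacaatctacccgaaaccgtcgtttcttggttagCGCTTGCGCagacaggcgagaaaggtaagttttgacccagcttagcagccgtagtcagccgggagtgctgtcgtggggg
NDUFS6, chr5:1801207-1801406, plus strand: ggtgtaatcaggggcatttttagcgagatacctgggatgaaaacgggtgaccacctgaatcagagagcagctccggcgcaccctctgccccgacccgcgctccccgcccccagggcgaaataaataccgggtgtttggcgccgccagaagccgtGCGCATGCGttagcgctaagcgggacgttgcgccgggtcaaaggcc
NDUFA3, chr19:54102655-54102854, plus strand: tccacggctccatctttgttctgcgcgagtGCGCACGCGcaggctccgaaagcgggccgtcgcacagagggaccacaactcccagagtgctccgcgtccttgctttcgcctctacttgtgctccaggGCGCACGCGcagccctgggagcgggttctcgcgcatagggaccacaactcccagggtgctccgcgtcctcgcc
NDUFB2, chr7:140696508-140696707, plus strand: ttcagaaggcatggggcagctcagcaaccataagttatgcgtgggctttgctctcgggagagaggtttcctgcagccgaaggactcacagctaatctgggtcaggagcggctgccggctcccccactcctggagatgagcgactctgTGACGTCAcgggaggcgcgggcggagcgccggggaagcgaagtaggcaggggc
NDUFAF4, chr6:96897892-96898091, minus strand: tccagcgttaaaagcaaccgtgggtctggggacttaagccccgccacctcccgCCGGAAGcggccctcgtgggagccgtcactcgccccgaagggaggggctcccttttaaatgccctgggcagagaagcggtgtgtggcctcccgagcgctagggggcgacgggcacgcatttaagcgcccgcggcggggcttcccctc
NDUFA1, chrX:119871632-119871831, plus strand: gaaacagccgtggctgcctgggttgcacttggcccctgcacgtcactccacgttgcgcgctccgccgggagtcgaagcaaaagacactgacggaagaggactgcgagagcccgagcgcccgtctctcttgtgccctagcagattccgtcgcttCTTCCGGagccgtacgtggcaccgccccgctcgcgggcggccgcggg

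The values are log2 expression per gene, summarised by the authors from exon-level estimates and set on a common quantile scale, so read counts are not given and the depth of each library is unknown. A difference of 1 is a 2-fold difference on this scale. All members were measured in all 23 libraries. Across all rows, Pearson's r was 0.952 to 0.988 between libraries of 1 group, 0.889 to 0.960 between the states of 1 line and 0.624 to 0.808 between lines, as a description, and no library was a copy of another. Markers of the labelled tissue moved too. Of 9 epithelial and Müllerian markers, 9 were lower in resistant Kuramochi, 8 in OVSAHO, 3 in OV-90 and 5 in EFO-21, where 2 were higher. EPCAM, an epithelial adhesion protein, fell by 3.78 in Kuramochi and 3.01 in OVSAHO. In OV-90 the markers PAX8 and WT1 were near the bottom of the scale. Of 11 markers of blood, endothelial, stromal and liver cells, 3, 7, 1 and 2 were lower and 2, 1, 2 and 2 higher in resistant Kuramochi, OVSAHO, OV-90 and EFO-21. Of all 21658 rows, 23.3%, 16.2%, 17.9% and 23.4% were lower and 23.6%, 17.1%, 18.1% and 25% higher in those lines. The part of these marker shifts in the changes below was not tested, and in bulk RNA fewer cells of a type and less RNA per cell cannot be told apart.

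Most complex I genes that changed were lower in the resistant lines. Changes are resistant minus parental log2 values from limma with Benjamini-Hochberg adjustment over all 21658 rows, and a gene is called lower or higher at an adjusted p under 0.05. In OVSAHO 33 of 46 members were lower and 1 was higher, where 16.2% of all rows were lower and 17.1% higher. In OV-90 30 members were lower and 0 were higher, against 17.9% and 18.1% of all rows. By limma's unadjusted p under 0.05, 37 members were lower and 1 was higher in OV-90. In EFO-21 24 were lower and 2 higher, against 23.4% and 25% of all rows. In Kuramochi 13 were lower and 2 higher, against 23.3% and 23.6%, so the share of lower members there, 28.3%, was near the background. Changes of at least 2-fold were few: 3, 0, 6 and 2 members were lower by that much in Kuramochi, OVSAHO, OV-90 and EFO-21, where 10.6%, 3.83%, 6.56% and 7.15% of all rows were. In none of the lines was a member higher by that much, with 0 of 46, where 11.8%, 3.93%, 9.5% and 7.11% of all rows were.

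Subunits and assembly factors were lower to different extents from line to line. Among 37 subunits, 8 were lower and 1 higher in Kuramochi, with a median change of -0.02. In OVSAHO 29 were lower and 0 higher, with a median of -0.24, and in OV-90 24 were lower and 0 higher, with a median of -0.50. In EFO-21 20 were lower and 1 higher, with a median of -0.23. Among the 8 NDUFAF factors, 4, 4, 5 and 4 were lower and 1, 1, 0 and 1 higher in Kuramochi, OVSAHO, OV-90 and EFO-21, with medians of -0.31, -0.23, -0.57 and -0.37. The medians of all rows were -0.02, 0.00, -0.06 and 0.01. In Kuramochi the factors had the lower median and a larger share of lower genes, whereas in OVSAHO a larger share of subunits was lower. The difference between the classes was not tested. All resistant libraries lay below all parental libraries in 8, 30, 35 and 26 of 37 subunits, while 30.5%, 23.7%, 37.1% and 29.3% of all rows did. All resistant libraries lay above all parental ones in 5, 0, 1 and 3 subunits, against 28.7%, 24.6%, 32% and 30.4% of all rows.

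**Figure D1:**
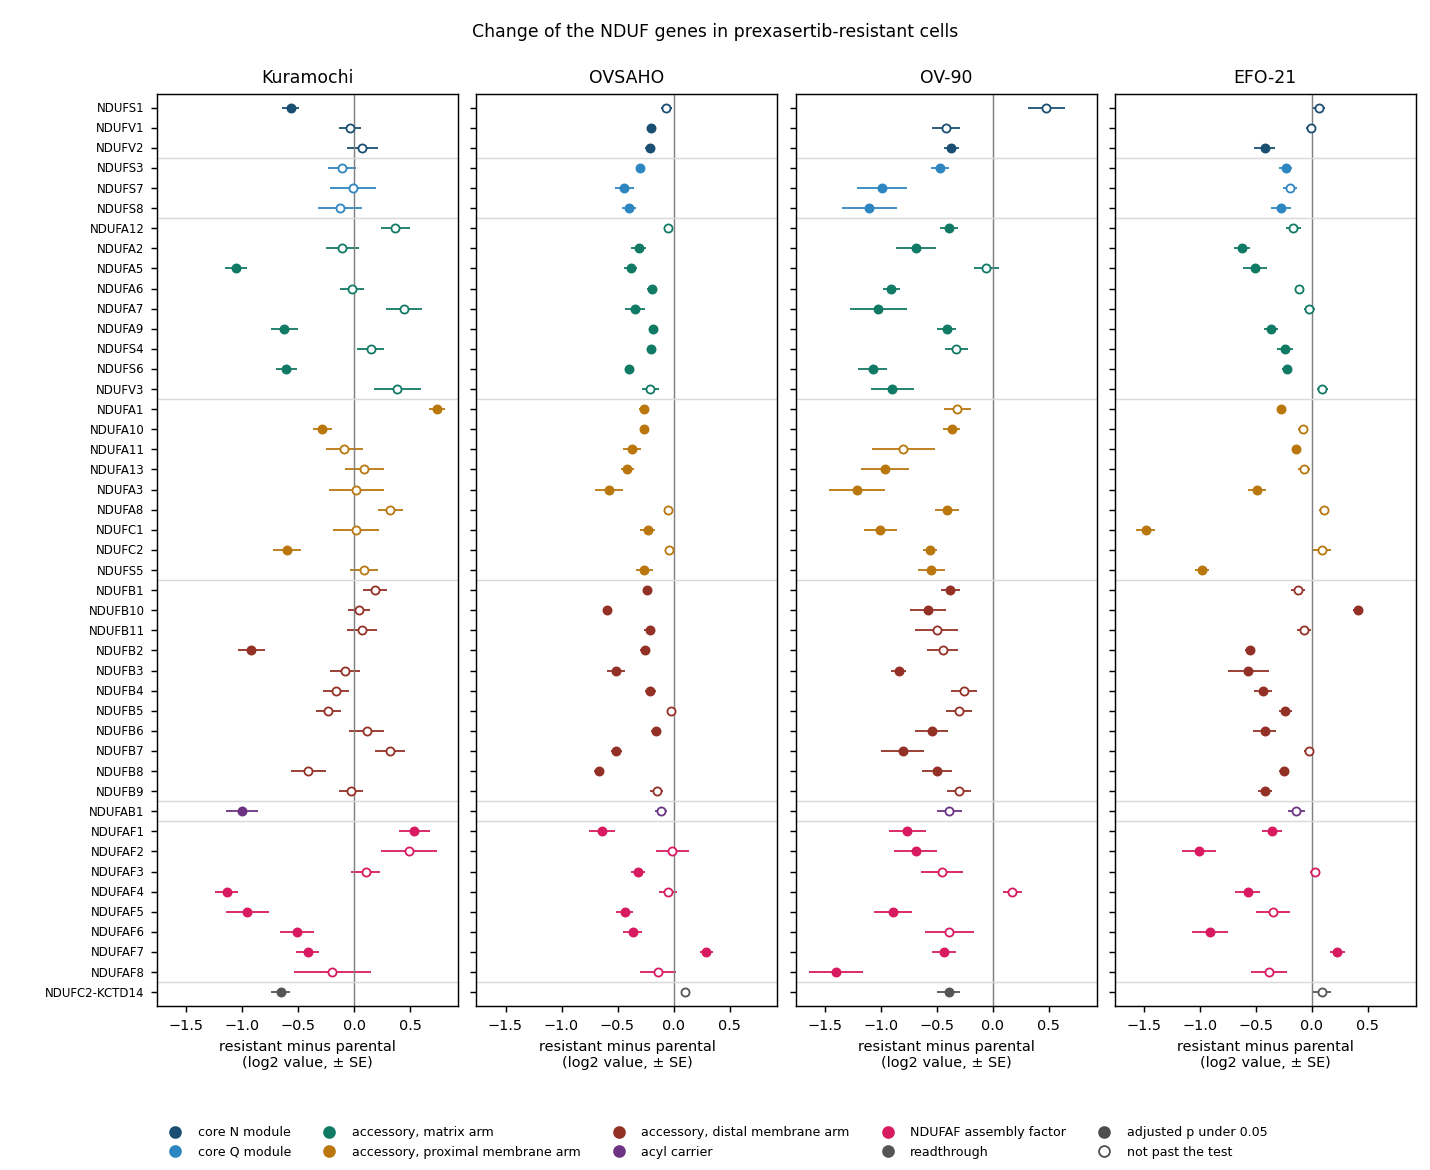
Resistant minus parental log2 change of 45 of the 46 NDUF members in the 4 lines, 1 row per gene ordered by role, with filled marks for members past limma's adjusted p of 0.05 and bars for the standard error. Most marks of OVSAHO and OV-90 sit left of 0, while those of Kuramochi lie on both sides.

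Most complex I subunits have short transcripts, and in OVSAHO, OV-90 and EFO-21 the median change of other rows was negative for short transcripts and positive for long ones, while in Kuramochi both medians were close to 0. Of the 37 subunits, 26 had a GENCODE transcript under 1000 bases, and the median of all 37 was 691 bases. Among the 8 assembly factors 3 did, and the median of all 8 was 1652 bases. Among 473 other protein-coding rows under 1000 bases above the median level and outside the mitochondrial and ribosomal families, the median change was -0.03 in Kuramochi, -0.19 in OVSAHO, -0.62 in OV-90 and -0.16 in EFO-21. Of these short rows, 23.7%, 42.5%, 50.5% and 43.8% were lower. Among 4519 such rows of 3000 bases or more, the medians were -0.02, 0.11, 0.45 and 0.07, and 24.9%, 12.3%, 7.57% and 22% were lower. The 26 short subunits had medians of 0.02, -0.28, -0.52 and -0.24, and 11.5%, 84.6%, 69.2% and 61.5% of them were lower. Set beside the other short rows, a larger share of short subunits was lower in OVSAHO, OV-90 and EFO-21 and a smaller share in Kuramochi, while in OV-90 the median of the short subunits was the less negative. These differences were not tested.

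**Figure D2:**
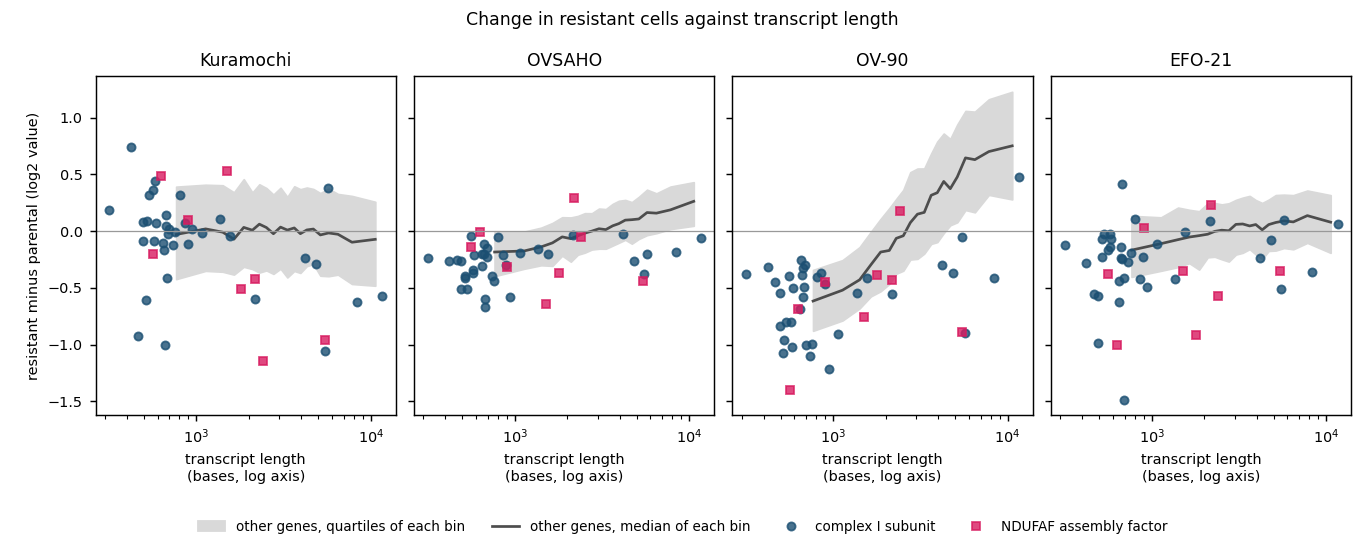
Resistant minus parental log2 change against transcript length in bases (log axis) in the 4 lines, with all subunits but 1 and the NDUFAF factors as points, and the median and quartiles of each bin of other protein-coding rows as a line and a band. In OV-90 the line climbs from -0.62 in the shortest of 20 bins to 0.75 in the longest.

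Subunits and other short rows were also set side by side in single libraries. For each library the median deviation of the 37 subunits from the mean of its line was compared with that of the 473 other short rows. In parental OV-90, library 2 stood at 0.46 for subunits and 0.61 for other short rows, and library 3 at 0.14 and 0.14. The resistant OV-90 libraries stood at -0.16, -0.13 and -0.27 for subunits and at -0.22, -0.16 and -0.34 for other short rows. In parental Kuramochi, library 4 stood at -0.26 and -0.28, below the resistant libraries of that line, while libraries 5 and 6 stood at 0.13 and 0.17 for subunits. In OVSAHO and EFO-21 every parental library was above every resistant one for subunits, at 0.10 to 0.16 against -0.15 to -0.08 in OVSAHO and 0.09 to 0.10 against -0.20 to -0.04 in EFO-21. The part of transcript length in the changes of the members was not tested.

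**Figure D3:**
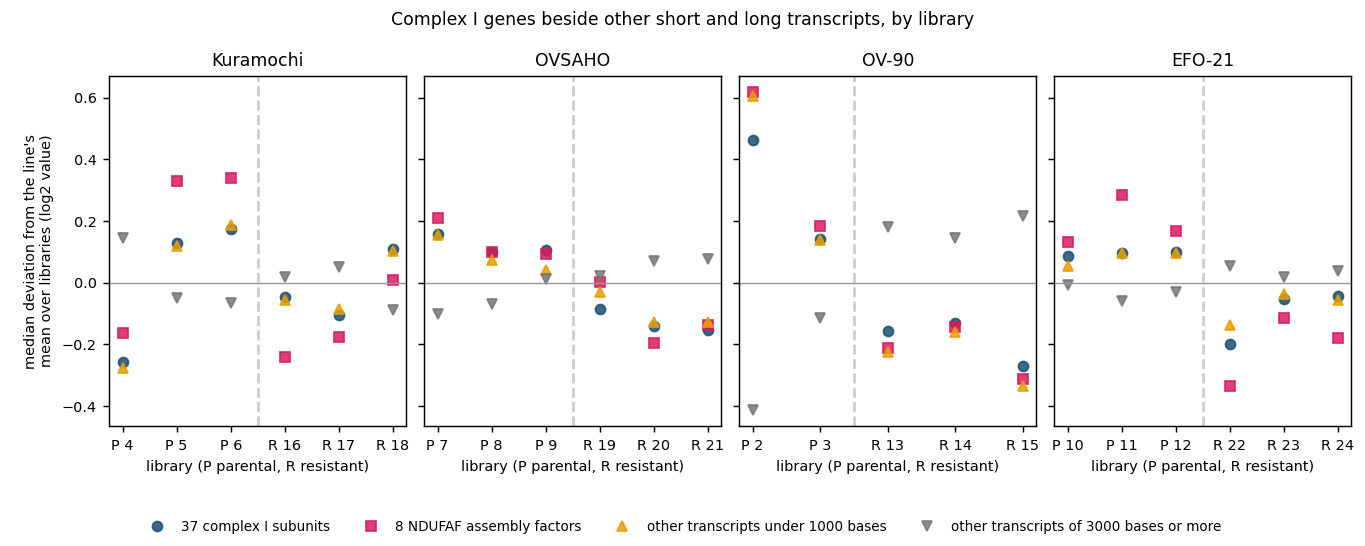
Median log2 deviation of the 37 subunits from the mean of the line in each of the 23 libraries, with that of the NDUFAF factors and of other short and long transcripts. Library 2 of parental OV-90 is the highest at 0.46 for subunits, and library 4 of parental Kuramochi lies at -0.26.

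The trend over transcript length was then taken out of each library, a setting added after the length relation had been seen. Fewer members were lower in OVSAHO, OV-90 and EFO-21, and more were higher in all 4 lines. In Kuramochi 13 were lower, as before, and 8 higher, against 29.8% and 31.4% of all rows with a length. In OVSAHO 19 were lower and 4 higher, against 20.9% and 21%. In OV-90 15 were lower and 8 higher, against 22.1% and 18.9%, and in EFO-21 17 were lower and 8 higher, against 28% and 27.9%. The subunit medians became -0.01, -0.10, -0.04 and -0.06, and the NDUFAF medians -0.31, -0.08, -0.24 and -0.36, in Kuramochi, OVSAHO, OV-90 and EFO-21. Members lower both before and after numbered 11, 17, 13 and 16. Without library 2 or library 3 of OV-90, as deposited, 1 parental library was left, and the subunit median was -0.32 or -0.64. The counts in OV-90 also rested on single libraries: 0 members were lower without any 1 of the resistant libraries 13, 14 and 15. At limma's unadjusted p under 0.05, 29, 33 and 28 members were lower in those 3 settings, in which 1.46%, 2.05% and 1.7% of all rows were called against 36% with all 5 libraries.

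The 3 nuclear core subunits of the N module differed in pattern. NDUFS1 (Gene ID 4719, chr2:206979541-207024233 on GRCh37, minus strand) encodes the large iron-sulfur subunit and has a long transcript of 11660 bases. In Kuramochi its log2 values were 9.31, 9.16 and 9.09 in the parental libraries and 8.69, 8.60 and 8.56 in the resistant ones. The groups did not overlap, and NDUFS1 fell by 0.57 (SE 0.0763, limma adjusted p = 0.0015). In OV-90 its parental values were 8.16 and 8.69 and its resistant values 8.92, 8.86 and 8.93. The resistant libraries were all above, but the difference of 0.48 (SE 0.168) did not pass, with a limma adjusted p of 0.0801, and became -0.34 with the length trend removed. NDUFV2, which holds an iron-sulfur cluster beside the NADH site, fell by 0.21 in OVSAHO, 0.37 in OV-90 and 0.42 in EFO-21. Once the length trend was removed its changes there were -0.02, 0.23 and -0.28, of which that in EFO-21 passed (limma adjusted p = 0.0134). NDUFV1, which binds NADH and FMN, fell by 0.20 in OVSAHO alone among the calls (SE 0.0326, limma adjusted p = 0.0062), with changes of -0.04, -0.41 and -0.01 in Kuramochi, OV-90 and EFO-21. Its change in OVSAHO became -0.09 after removal of the length trend and no longer passed (limma adjusted p = 0.0857).

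Core subunits of the Q module carry the path to ubiquinone, and NDUFS3, NDUFS7 and NDUFS8 were lower in both OVSAHO and OV-90. NDUFS8 (Gene ID 4728, chr11:67798084-67804111 on GRCh37, plus strand), which holds the iron-sulfur clusters that lead toward the quinone site, had the largest fall among them. In OV-90 it stood at 8.86 and 8.09 in the parental libraries and at 7.37, 7.48 and 7.28 in the resistant ones. Both parental libraries were higher than every resistant library, library 2 the more so, and NDUFS8 fell by 1.10 (SE 0.243, limma adjusted p = 0.0312). NDUFS8 also fell by 0.40 in OVSAHO and 0.27 in EFO-21. NDUFS7, the neighbouring iron-sulfur subunit, fell by 0.99 in OV-90 and 0.44 in OVSAHO. NDUFS3 fell by 0.30, 0.47 and 0.23 in OVSAHO, OV-90 and EFO-21. With the length trend removed, the changes of NDUFS3, NDUFS7 and NDUFS8 in OVSAHO were -0.12, -0.23 and -0.19 and still passed, and in OV-90 those of NDUFS7 and NDUFS8 did, at -0.34 and -0.44. The change of NDUFS3 in OV-90 became 0.11 and did not pass (limma adjusted p = 0.358). In EFO-21 neither NDUFS8 nor NDUFS3 then passed, at -0.11 and -0.09 (limma adjusted p = 0.324 and 0.0837).

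Among the 9 accessory subunits of the matrix arm, 3, 7, 7 and 5 were lower in Kuramochi, OVSAHO, OV-90 and EFO-21, and 0 were higher in any line. NDUFA9 (Gene ID 4704, chr12:4758261-4803483 on GRCh37, plus strand), a subunit at the junction of the arms that binds a nucleotide cofactor, and NDUFS6, a zinc-binding subunit added late in the assembly of the N module, were the 2 members lower in all 4 lines. In Kuramochi NDUFA9 stood at 8.89, 9.24 and 9.28 in the parental libraries and at 8.47, 8.43 and 8.64 in the resistant ones. In OVSAHO it stood at 8.95, 8.85 and 8.93 against 8.70, 8.72 and 8.76. In OV-90 it stood at 10.35 and 10.12 against 9.83, 9.86 and 9.78, and in EFO-21 at 7.65, 7.53 and 7.56 against 7.12, 7.22 and 7.31. In no line did the groups overlap, and NDUFA9 fell by 0.62, 0.18, 0.41 and 0.36 in the 4 lines (SE 0.122, 0.0394, 0.0873 and 0.0662; limma adjusted p = 0.00683, 0.0169, 0.029 and 0.00588). Its transcript of 8356 bases was among the longest of the members. With the length trend removed its changes were -0.56, -0.39, -1.11 and -0.46, of which that in Kuramochi no longer passed, with a limma adjusted p of 0.0752.

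NDUFS6 (Gene ID 4726, chr5:1801521-1816162 on GRCh37, plus strand) has a transcript of 518 bases. In OV-90 it stood at 12.39 and 12.02 in the parental libraries and at 11.15, 11.20 and 11.05 in the resistant ones, and in Kuramochi at 11.53, 11.79 and 11.84 against 11.10, 11.04 and 11.20. No resistant library reached a parental one in either line. NDUFS6 fell by 0.61, 0.39, 1.07 and 0.23 in Kuramochi, OVSAHO, OV-90 and EFO-21 (SE 0.0949, 0.0378, 0.129 and 0.0444; limma adjusted p = 0.00282, 0.00116, 0.0127 and 0.00798). With the length trend removed only the change in Kuramochi passed, at -0.59, and the other changes were -0.15, -0.29 and -0.03.

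NDUFA5 (Gene ID 4698, chr7:123177051-123197958 on GRCh37, minus strand), an accessory subunit of the Q module, had the second largest fall of the members in Kuramochi. It stood at 7.57, 7.80 and 7.62 in the parental libraries and at 6.54, 6.56 and 6.72 in the resistant ones. No resistant library reached a parental one, and NDUFA5 fell by 1.06 (SE 0.0972, limma adjusted p = 0.000328). NDUFA5 also fell by 0.38 in OVSAHO and 0.51 in EFO-21, and in OV-90 its groups overlapped, at 8.12 and 7.86 against 7.84, 7.99 and 7.97. With the length trend removed the 3 changes still passed, at -1.04, -0.51 and -0.59. NDUFA2, which has a thioredoxin-like fold, fell by 0.31, 0.68 and 0.62 in OVSAHO, OV-90 and EFO-21. Its changes after removal of the length trend were -0.09, 0.02 and -0.45, of which that in EFO-21 passed (limma adjusted p = 0.000173). The remaining 5 subunits of the matrix arm had changes from -1.02 for NDUFA7 in OV-90 to 0.44 for NDUFA7 in Kuramochi, and the latter did not pass (limma adjusted p = 0.0641).

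The 9 accessory subunits of the proximal membrane arm were lower in 2, 7, 7 and 5 cases and higher in 1 case, in Kuramochi. That case was NDUFA1 (Gene ID 4694, chrX:119005795-119010625 on GRCh37, plus strand), a small subunit with 1 membrane helix that is needed for assembly of the membrane arm. In Kuramochi it stood at 11.36, 11.56 and 11.54 in the parental libraries and at 12.22, 12.19 and 12.25 in the resistant ones, and it rose by 0.74 (SE 0.0691, limma adjusted p = 0.000353). In OVSAHO it stood at 13.28, 13.23 and 13.29 against 13.03, 12.98 and 12.98, and in EFO-21 at 12.17, 12.17 and 12.18 against 11.86, 11.86 and 11.96. The groups did not overlap in these 3 lines, with resistant libraries higher in Kuramochi and lower in the other two. The changes in OVSAHO and EFO-21 were -0.27 and -0.28 (limma adjusted p = 0.00469 and 0.00163), and with the length trend removed they became 0.00 and -0.06 while the rise in Kuramochi was 0.75. Of 26 rows within 2 Mb (megabases, on either side) of NDUFA1, 22 were higher in resistant Kuramochi, with a median of 0.92; their part in the result was not tested.

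NDUFC1 (Gene ID 4717, chr4:140188034-140223705 on GRCh37, minus strand), one of the smallest subunits, had the largest fall of any member. In EFO-21 it stood at 7.38, 7.54 and 7.49 in the parental libraries and at 5.87, 6.01 and 6.08 in the resistant ones. The groups were far apart, and NDUFC1 fell by 1.48 (SE 0.0817, limma adjusted p = 7.78e-05). With the length trend removed its change was -1.32. In OV-90 NDUFC1 stood at 8.43 and 8.04 against 7.29, 7.29 and 7.12 and fell by 1.0, a change that became -0.32 and still passed with the length trend removed. In Kuramochi its groups overlapped, with a change of 0.02. NDUFS5, a subunit of the intermembrane space side, stood in EFO-21 at 10.43, 10.39 and 10.28 against 9.28, 9.43 and 9.45 and fell by 0.98 (SE 0.0613, limma adjusted p = 0.000114), and its change was -0.78 after removal of the length trend. Genes near both were lower in the same line. Of 18 neighbours of NDUFC1 within 2 Mb, 12 were lower in EFO-21, with a median of -0.81, and of 48 neighbours of NDUFS5, 32 were lower, with a median of -0.48. The part of these neighbourhoods in the result was not tested.

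NDUFA3, another small membrane subunit, had the largest fall of a subunit in OV-90. It stood at 9.54 and 8.75 in the parental libraries and at 7.89, 8.07 and 7.84 in the resistant ones. Library 2 was well above library 3, and both were above the resistant libraries. NDUFA3 fell by 1.21 (SE 0.251, limma adjusted p = 0.028), by 0.58 in OVSAHO and by 0.49 in EFO-21, and these calls all passed with the length trend removed, at changes of -0.65, -0.40 and -0.36. NDUFA10, a nucleoside kinase-like subunit with a transcript of 4855 bases, fell by 0.29, 0.26 and 0.37 in Kuramochi, OVSAHO and OV-90. After removal of the length trend its changes were -0.28, -0.37 and -0.82, of which that in Kuramochi no longer passed (limma adjusted p = 0.104). NDUFC2 fell by 0.60 in Kuramochi and 0.56 in OV-90, and both calls held after that removal, at -0.62 and -0.45.

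Among the 11 NDUFB subunits of the distal membrane arm, 1, 9, 6 and 7 were lower in Kuramochi, OVSAHO, OV-90 and EFO-21, and 1 was higher, in EFO-21. NDUFB2 (Gene ID 4708, chr7:140390577-140422590 on GRCh37, plus strand) was the member lower in Kuramochi. It stood there at 10.68, 11.05 and 11.10 in the parental libraries and from 9.95 to 10.13 in the resistant ones, with no overlap, and fell by 0.92 (SE 0.123, limma adjusted p = 0.00145). Of 26 neighbours within 2 Mb, 14 were lower in that line, with a median of -0.51, and their part in the result was not tested. NDUFB2 also fell by 0.25 in OVSAHO and 0.55 in EFO-21. After removal of the length trend its changes were -0.91 in Kuramochi and -0.34 in EFO-21, which passed, 0.01 in OVSAHO, which did not (limma adjusted p = 0.917), and 0.38 in OV-90, which passed as higher (0.0253). NDUFB8, used as a marker of assembled complex I in protein assays, stood in OVSAHO at 10.28, 10.20 and 10.14 against 9.56, 9.53 and 9.53. It fell by 0.67 (SE 0.042, limma adjusted p = 0.000311), the most of any member in OVSAHO, and its change was -0.45 with the length trend removed. Of 44 neighbours of NDUFB8 within 2 Mb, 27 were lower and 3 higher in OVSAHO, with a median of -0.30, and their part was not tested. NDUFB3 fell by 0.51, 0.84 and 0.57, and NDUFB6 by 0.15, 0.55 and 0.42, in OVSAHO, OV-90 and EFO-21. Once the length trend was removed, NDUFB3 passed in none of the 3 lines, at -0.26, -0.04 and -0.36 (limma adjusted p = 0.0512, 0.885 and 0.106). NDUFB6 then stood at changes of -0.02, -0.15 and -0.34 and passed in EFO-21 alone among them (limma adjusted p = 0.674, 0.18 and 0.0122).

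NDUFB10 (Gene ID 4716, chr16:2009539-2011976 on GRCh37, plus strand) passed in opposite directions. In OVSAHO it stood at 11.77, 11.76 and 11.70 in the parental libraries and at 11.17, 11.16 and 11.12 in the resistant ones, and fell by 0.60 (SE 0.0338, limma adjusted p = 0.000221). In EFO-21 it stood at 11.75, 11.80 and 11.79 against 12.14, 12.17 and 12.27, and rose by 0.41 (SE 0.0419, limma adjusted p = 0.000659). The groups overlapped in neither line. The gene lies in the gene-dense end of the short arm of chromosome 16, and of 140 neighbours within 2 Mb, 104 were higher in resistant EFO-21, with a median of 0.53; their part in the result was not tested. In OV-90 NDUFB10 fell by 0.58 (limma adjusted p = 0.0491), and its change became 0.11 with the length trend removed.

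NDUFAB1 (Gene ID 4706, chr16:23592335-23607637 on GRCh37, minus strand), the mitochondrial acyl carrier protein, is both a subunit of complex I and a part of fatty acid and lipoic acid synthesis. In Kuramochi it stood at 9.83, 10.22 and 10.28 in the parental libraries and at 9.07, 8.97 and 9.29 in the resistant ones. Resistant libraries were all below parental ones, and NDUFAB1 fell by 1.0 (SE 0.144, limma adjusted p = 0.00198). In OVSAHO, OV-90 and EFO-21 the changes were -0.11, -0.39 and -0.14 and did not pass (limma adjusted p = 0.171, 0.0503 and 0.184). With the length trend removed, the change in Kuramochi was -0.99 and still passed, while that in OV-90 became 0.31 and passed as higher (limma adjusted p = 0.0376). Those in OVSAHO and EFO-21 became 0.11 and 0.04 and did not pass.

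Among the NDUFAF assembly factors, NDUFAF1 and NDUFAF7 passed in all 4 lines, in both directions. NDUFAF1 binds early membrane arm intermediates with ECSIT and ACAD9. In Kuramochi it stood at 5.89, 6.19 and 6.36 in the parental libraries and at 6.68, 6.71 and 6.66 in the resistant ones, and rose by 0.53 (SE 0.138, limma adjusted p = 0.0205). In OVSAHO it stood at 7.18, 7.26 and 6.87 against 6.57, 6.41 and 6.40, and fell by 0.64 (SE 0.116, limma adjusted p = 0.0093). There was no overlap in either. NDUFAF1 also fell by 0.76 in OV-90 and 0.36 in EFO-21, and all 4 calls held with the length trend removed. NDUFAF7, a methyltransferase of the mitochondrial matrix, fell by 0.42 in Kuramochi and 0.43 in OV-90, and it rose by 0.29 in OVSAHO and 0.23 in EFO-21. In OVSAHO its parental values were 6.86, 6.88 and 6.81 and its resistant values 7.13, 7.07 and 7.22. Of 23 neighbours of NDUFAF7 within 2 Mb, 17 were higher and 0 lower in OVSAHO, with a median of 0.40. In Kuramochi 9 of them were lower and 1 higher, with a median of -0.37. In OV-90 6 were lower and 4 higher, and in EFO-21 6 were lower and 8 higher. The part of these neighbours in the result was not tested.

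NDUFAF4 (Gene ID 29078, chr6:97337191-97345767 on GRCh37, minus strand), which works with NDUFAF3 on the Q module, had the largest fall of a member in Kuramochi. It stood at 9.43, 9.65 and 9.57 in the parental libraries and at 8.39, 8.25 and 8.58 in the resistant ones. Every resistant library was below every parental one, and NDUFAF4 fell by 1.14 (SE 0.103, limma adjusted p = 0.000302). It also fell in EFO-21, by 0.57, while in OVSAHO its groups overlapped and in OV-90 its change was 0.18 (limma adjusted p = 0.154). Its 5 neighbours within 2 Mb had a median change of 0.04 in Kuramochi. NDUFAF3 itself was lower in OVSAHO alone among the calls, by 0.32.

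NDUFAF5 (Gene ID 79133, chr20:13765653-13802226 on GRCh37, plus strand), a hydroxylase of NDUFS7, was lower in 3 lines, as were NDUFAF1 and NDUFAF6. It stood in OV-90 at 7.39 and 6.99 in the parental libraries and at 6.37, 6.38 and 6.15 in the resistant ones, and in Kuramochi at 4.94, 5.19 and 5.46 against 4.10, 4.30 and 4.32. In OVSAHO it stood at 5.95, 5.93 and 6.01 against 5.53, 5.49 and 5.57. The groups did not overlap in these lines or in EFO-21. NDUFAF5 fell by 0.96, 0.44 and 0.89 in Kuramochi, OVSAHO and OV-90 (SE 0.191, 0.0767 and 0.167; limma adjusted p = 0.00756, 0.00852 and 0.0243), and its change in EFO-21 was -0.35 (limma adjusted p = 0.109). With the length trend removed it was the 1 member lower in all 4 lines. In Kuramochi 5 of its 8 neighbours were lower, with a median of -0.72, and their part in the result was not tested.

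The other factors passed in fewer places. NDUFAF6, which works on early Q module intermediates, stood in EFO-21 at 5.67, 5.48 and 5.57 in the parental libraries and at 4.37, 4.88 and 4.74 in the resistant ones, and fell by 0.91 (SE 0.161, limma adjusted p = 0.0053). It also fell by 0.51 in Kuramochi and 0.37 in OVSAHO. NDUFAF2, a paralogue of NDUFA12 that occupies its place before the N module joins, stood in EFO-21 at 7.66, 7.62 and 7.41 against 6.24, 6.71 and 6.72, and fell by 1.01 (SE 0.149, limma adjusted p = 0.00269). It fell by 0.69 in OV-90, where its change became 0.03 with the length trend removed. After that removal it passed as higher in Kuramochi, at 0.50 (limma adjusted p = 0.0102), and still as lower in EFO-21, at -0.83. NDUFA12, its counterpart among the subunits, had changes of 0.37, -0.05, -0.39 and -0.17 in Kuramochi, OVSAHO, OV-90 and EFO-21 and passed in OV-90. Without the length trend these were 0.38, 0.19, 0.36 and 0.03. The first 2 passed as higher (limma adjusted p = 0.00135 and 0.00654), and that in OV-90 did not pass (0.0768). NDUFAF8, a partner of NDUFAF5, stood in OV-90 at 10.94 and 10.17 against 9.07, 9.27 and 9.13 and fell by 1.40 (SE 0.242, limma adjusted p = 0.0215), the largest fall of a member in that line. In Kuramochi its library 4, at 7.56, was far below libraries 5 and 6, at 8.65 and 8.92, and the change of -0.20 did not pass.

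**Figure D4:**
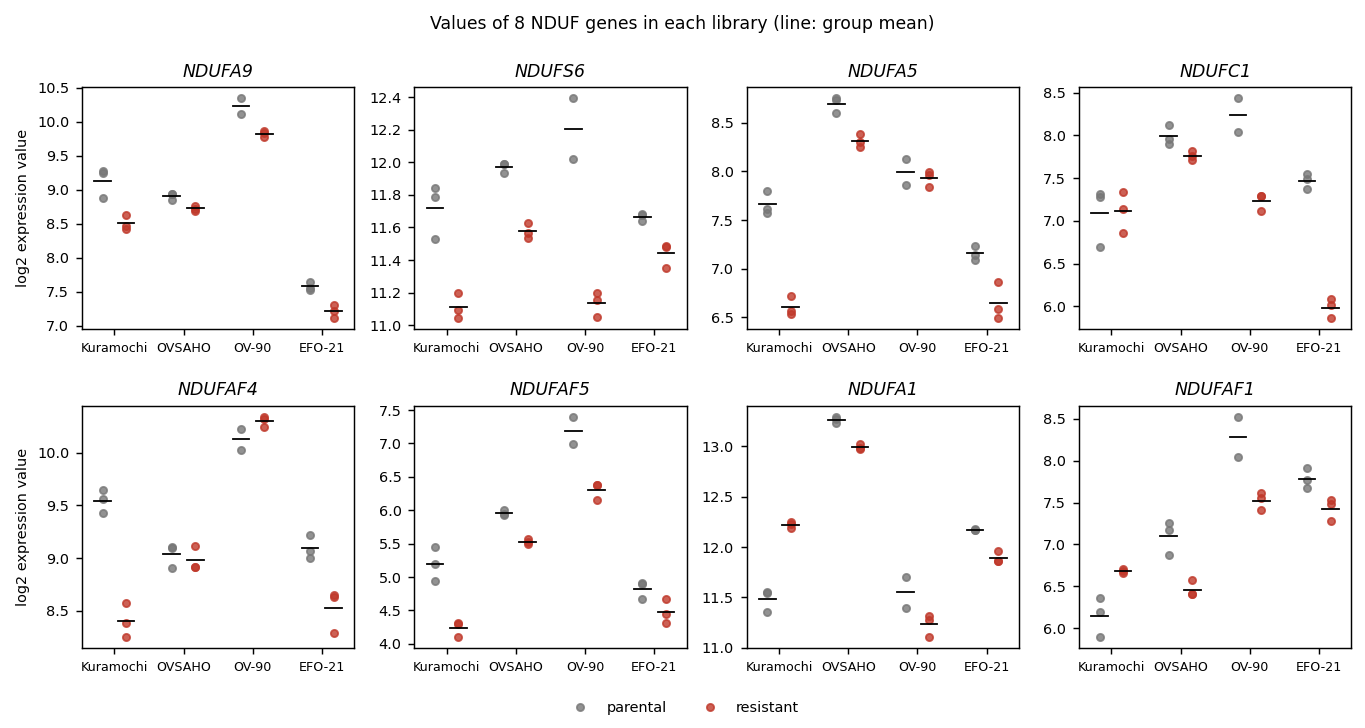
Log2 expression in each library, parental and resistant in the 4 lines, for 8 members on which the results turn, with points for libraries and short lines for group means. In EFO-21 the resistant points of NDUFC1 lie at or below 6.08 and the parental points at or above 7.38.

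NDUFC2-KCTD14 fell by 0.66 in Kuramochi and 0.39 in OV-90, as NDUFC2 fell by 0.60 and 0.56. Once the length trend was removed, the change of NDUFC2-KCTD14 was -0.65 in Kuramochi and still passed as lower, while it passed as higher in OVSAHO, OV-90 and EFO-21, at 0.34, 0.38 and 0.29 (limma adjusted p = 0.00704, 0.0479 and 0.00587). Reads of the shared exons cannot be assigned to either, so the values of both are uncertain. Of 24 neighbours of this locus on chromosome 11, 17 were lower in Kuramochi, with a median of -0.73, and their part in the result was not tested. Gene IDs formerly named NDUFA4 and NDUFA4L2 carry the symbols COXFA4 and COXFA4L2 in the symbol table, since the protein of the first belongs to complex IV, and they were not among the 46. COXFA4 fell by 0.47, 0.37 and 0.36 in Kuramochi, OVSAHO and EFO-21, with a change of -0.26 in OV-90. COXFA4L2, a hypoxia-induced paralogue, stood in EFO-21 at 6.64, 6.53 and 6.27 in the parental libraries and at 3.01, 3.25 and 3.88 in the resistant ones. It fell by 3.10 there (SE 0.251, limma adjusted p = 0.000287) and by 0.96 in Kuramochi.

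Counted across lines, 2 members were lower in 4 lines, 16 in 3, 16 in 2 and 12 in 1, and 0 were lower in none. With the length trend removed, 7 members were lower in at least 3 lines, where 18 had been. The 4 members that passed in opposite directions were NDUFA1, NDUFAF1, NDUFAF7 and NDUFB10. For these counts across lines the share of all rows was not computed, so they cannot be set against a background. In a fit of 1 average change with the line as a term, 29 members were lower, 25 of them subunits and 4 NDUFAF factors, and 0 were higher, where 16.6% and 16.4% of all rows were. At limma's unadjusted p under 0.05, 33 were lower and 0 higher. Libraries were the replicates in this fit, although only 1 resistant line was measured for each parental line. Its p-values therefore do not measure a spread between independent resistant lines. After removal of the length trend, 16 members were lower and 5 higher on average. The share of all rows was not computed for that setting, so these counts have no background beside them. The change differed between the lines in 39 of 46 members by limma's moderated F test, against 75.1% of all rows.

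Levels differed between the parental lines in most members, as in most rows. The parental level differed in 44 of 46 members, about the same share as the 95.6% of all rows, so the members did not stand out. The 2 that did not pass were NDUFA11 (limma adjusted p = 0.156) and NDUFAF3 (0.0696). NDUFA9 had mean parental levels of 10.23 in OV-90, 9.14 in Kuramochi, 8.91 in OVSAHO and 7.58 in EFO-21. Its parental libraries overlapped between Kuramochi and OVSAHO and not elsewhere. The median subunit level per library was 9.84 to 10.23 in parental OV-90 and 9.12 to 9.19 in parental EFO-21.

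Genes of the other respiratory complexes that changed were also mostly lower in the resistant lines. Of 42 nuclear subunits of complexes II to V, 18, 33, 19 and 25 were lower and 3, 0, 0 and 3 higher in Kuramochi, OVSAHO, OV-90 and EFO-21, with medians of -0.24, -0.29, -0.38 and -0.28. Of 77 mitochondrial ribosomal proteins, 25, 30, 47 and 41 were lower and 9, 5, 3 and 9 higher. As a background for both lists, 23.3%, 16.2%, 17.9% and 23.4% of all rows were lower and 23.6%, 17.1%, 18.1% and 25% higher. After removal of the length trend, 30, 21, 22 and 41 of the 77 were lower and 17, 14, 10 and 15 higher. Of all rows with a length, 29.8%, 20.9%, 22.1% and 28% were then lower and 31.4%, 21%, 18.9% and 27.9% higher. The differences between these lists and complex I were not tested. Once the length trend was removed, 24, 21, 8 and 23 of the genes of complexes II to V were lower and 5, 2, 16 and 5 higher. Of 12 other complex I assembly factors, 3, 4, 2 and 6 were lower and 1, 0, 0 and 3 higher. That is 25%, 33.3%, 16.7% and 50% lower and 8.33%, 0%, 0% and 25% higher. The lower shares in Kuramochi and OV-90 and the higher share in EFO-21 were near those of all rows. FOXRED1, an oxidoreductase-like assembly factor encoded on chromosome 11, stood in Kuramochi at 7.13, 7.44 and 7.44 in the parental libraries and at 9.68, 9.58 and 9.66 in the resistant ones, and rose by 2.30 (SE 0.101, limma adjusted p = 2.18e-05). Its change was the largest rise in that list, and every resistant library was above every parental one. The genes near FOXRED1 on chromosome 11 were not examined here. Of 13 regulators of mitochondrial biogenesis, 2, 5, 0 and 4 were lower and 2, 2, 2 and 2 higher. That is 15.4%, 38.5%, 0% and 30.8% lower and 15.4% higher in each line, beside 23.3%, 16.2%, 17.9% and 23.4% of all rows lower and 23.6%, 17.1%, 18.1% and 25% higher. After removal of the length trend, 3, 7, 3 and 7 of the regulators were lower and 2, 2, 2 and 1 higher. ESRRA, a nuclear receptor that drives respiratory genes, fell by 0.62, 0.42 and 0.27 in Kuramochi, OVSAHO and EFO-21, while GABPA rose by 1.38 in OV-90 (limma adjusted p = 0.0122).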

How the data were processed

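Poly(A) RNA of 23 libraries was sequenced with a stranded mRNA kit, and the authors used GRCh37/hg19 for alignment. The deposited table holds log2 expression per gene, for which the authors left out exons with few reads, fitted a robust linear model over the exon and junction reads of a gene, and quantile normalised the samples. Of the 46 members, 45 came from that model and 1 was a mean of log2 exon values. With no counts, depth is unknown and the number of libraries sets the precision. The table had 0 columns of other samples.

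Symbols were joined by NCBI Gene ID. Positions and transcript lengths came from a GENCODE annotation lifted to GRCh37, matched by symbol or synonym. The length was that of the Ensembl canonical transcript or, where none was lifted, of the longest protein-coding transcript of the basic set. Groups were taken from the titles. Each line was fitted alone with limma 3.58.1 in R 4.3.3 (2 groups, mean-variance trend, no filter, no pseudocount, two-sided), with Benjamini-Hochberg adjustment over 21658 rows. The average change was fitted with the line as an additive term, and the difference between lines and the parental level by moderated F tests in a fit of 8 group means. The code was tested on simulated data. Where a fit left out a library of parental OV-90, the lone parental library was taken to vary like the other groups, and only median changes are given.

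Members named are core subunits, the NDUFAF factors, the readthrough and both former NDUFA4 genes, the 3 largest rises and falls past the test in each line, and members past it 1 way in 3 or more lines, or both ways. NDUFC2, NDUFA7, NDUFA11 and NDUFA12 were chosen after their values were seen. A member enters the counts and medians and is otherwise not reported here. The members and lists were chosen with earlier results of these data known. The transcript-length setting was added after seeing the data: a loess curve (span 0.5) over 8487 protein-coding rows was taken from each library, for 15897 rows with a length.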

Additional observations from a re-analysis of the deposited data

Results flagged for a closer look

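Of the 32 genes named by the rule above, 28 had a change between resistant and parental libraries that differed between the lines. The test was limma's moderated F test, with an adjusted p under 0.05. NDUFC2, NDUFA7, NDUFA12, FOXRED1, GABPA and EPCAM also passed it but are outside that rule and not counted here. The values here are the distance on the log2 scale between the highest and the lowest of the 4 changes of a gene. Of all rows, 75.1% passed the same test. The 32 were picked partly for large or opposite changes, so the shares are not comparable. From OVSAHO, the highest, to EFO-21, the lowest, the distance was 2.75 for COXFA4L2. From Kuramochi, the highest, to OV-90, the lowest, the distance was 1.05 for NDUFA1, 0.58 for NDUFA2, 1.23 for NDUFA3, 1.29 for NDUFAF1, 0.55 for NDUFAF3, 0.75 for NDUFB3, 0.66 for NDUFB6, 0.98 for NDUFS7 and 0.97 for NDUFS8. From EFO-21, the highest, to OV-90, the lowest, the distance was 0.29 for NDUFA10, 0.84 for NDUFS6 and 0.40 for NDUFV1. From OV-90, the highest, to Kuramochi, the lowest, the distance was 1.0 for NDUFA5, 1.32 for NDUFAF4 and 1.05 for NDUFS1. From OVSAHO, the highest, to Kuramochi, the lowest, the distance was 0.44 for NDUFA9, 0.89 for NDUFAB1, 0.67 for NDUFB2 and 0.76 for NDUFC2-KCTD14. From Kuramochi, the highest, to EFO-21, the lowest, the distance was 1.5 for NDUFAF2, 1.5 for NDUFC1, 1.06 for NDUFS5 and 0.49 for NDUFV2. From EFO-21, the highest, to Kuramochi, the lowest, the distance was 0.61 for NDUFAF5. From OVSAHO, the highest, to OV-90, the lowest, the distance was 0.73 for NDUFAF7 and 1.26 for NDUFAF8. From EFO-21, the highest, to OVSAHO, the lowest, the distance was 1.01 for NDUFB10. Removing the length trend left 36 members past this test where 39 had been. The smallest adjusted p from limma among them was 5.11e-08 for NDUFA1, which rose in resistant Kuramochi and fell in OVSAHO and EFO-21, followed by 2.22e-06 for NDUFAF4. For each parental line 1 resistant line was measured, so a difference between the lines and a difference between their selections cannot be told apart.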

How the results depend on the processing

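Recentring the libraries to 1 median changed no call of a named gene in 128 of 128 cases. The library medians already lay between 6.0088 and 6.0122 after the authors' quantile normalisation, so this setting could hardly change a call. With at least 2-fold asked for, 3, 0, 6 and 2 members were lower in Kuramochi, OVSAHO, OV-90 and EFO-21 and 0 were higher in any line. With all 23 libraries in 1 fit, 15 were lower in OVSAHO, 8 were higher in Kuramochi and 1 in OV-90. Without the mean-variance trend 18 were lower in OV-90, and with rows of low mean left out 4 were higher in Kuramochi. From medians of groups, the Kuramochi medians were -0.15 for subunits and -0.50 for NDUFAF factors.

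With the transcript-length trend removed, 19 members were lower in OVSAHO and 15 in OV-90, and 8, 4, 8 and 8 were higher in Kuramochi, OVSAHO, OV-90 and EFO-21. Subunit medians were -0.10, -0.0388 and -0.0558 in OVSAHO, OV-90 and EFO-21, and NDUFAF medians -0.0789 and -0.24 in OVSAHO and OV-90. On average 16 members were lower and 5 higher, with no share of all rows computed for that average. Among the genes named by the rule whose change passed the test before or after this removal, the sign turned in OVSAHO for NDUFA1 (0.00202) and NDUFB2 (0.00629), and in OV-90 for NDUFA1 (0.54), NDUFA2 (0.021), NDUFAB1 (0.31), NDUFAF2 (0.0274), NDUFB10 (0.11), NDUFB2 (0.38), NDUFB8 (0.19), NDUFC2-KCTD14 (0.38), NDUFS1 (-0.34), NDUFS3 (0.11), NDUFS5 (0.25) and NDUFV2 (0.23). Among the NDUF genes chosen later, it turned for NDUFA12 in OVSAHO (0.19) and OV-90 (0.36) and for NDUFA11 in EFO-21 (0.0501).

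With 1 library left out at a time, lower members numbered 10 to 17 in Kuramochi, 22 to 29 in OVSAHO, 0 to 42 in OV-90 and 17 to 23 in EFO-21, and higher members 1 to 3, 1 to 2, 0 to 2 and 1 to 3. In OV-90 the upper ends of both ranges came from the fits without library 3 or library 2, which left 1 parental library. These ends hold no spread between parental libraries, so no conclusion is drawn from them. Subunit medians ran from -0.15 (without library 4) to 0.0393 in Kuramochi, -0.26 to -0.22 in OVSAHO, -0.64 to -0.32 in OV-90 and -0.25 to -0.16 in EFO-21. NDUFAF medians ran from -0.55 to -0.16, -0.33 to -0.16, -0.85 to -0.41 and -0.44 to -0.31. No paired analysis was possible because the columns carry library numbers and no replicate numbers. The cause of these shifts was not tested, beyond the fewer libraries in each fit, and the unknown depth limits statements on low genes.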
